A study of Mus musculus with 12 samples.

Results

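Endothelial genes were followed as a set of 43 in whole mouse kidney, through ischemia-reperfusion injury (IRI) and loss of Jaml. The set holds receptors, secreted factors, junction and surface proteins and transcription factors known from blood and lymphatic vessel cells. Members were the probes whose gene name in the scanner files was one of the 43 names, and each gene was read by its brightest kept probe. All 43 were among the 25947 genes tested, of 37325 gene names on the array, and 64 probes carried a member's name. The series has 12 one-colour Agilent arrays of male mouse kidney, 3 in each of 4 groups. WT sham and WT IRI are wild-type mice after a sham operation or 24 h after IRI, and KO sham and KO IRI are mice with a Jaml knockout treated in the same ways. All were on a C57/6J background by the series text, and the animals' age, the knockout allele and its reach over tissues are not given in the sources used here. The ischemia was 40 min of clamping of both renal pedicles by the series text and 30 min of ligation by the protocol, and the sources do not say which holds. The samples of a group are described as independent, and an array stands for 1 animal here.

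Blood vessel endothelium keeps its identity through VEGF receptors, angiopoietin receptors, VE-cadherin junctions and ETS and SOX transcription factors. In the kidney it differs by bed: glomerular capillaries filter plasma and live on VEGF from podocytes, peritubular capillaries are fenestrated and feed the tubules, arterial cells use Notch signals and connexins, and lymphatic vessels are set by Prox1 and drain the interstitium. Ischemia is known to injure the capillaries around the tubules, to change vascular tone through endothelin and nitric oxide, and to raise adhesion molecules that hold leukocytes.

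Levels are log2 processed signals relative to the 75th percentile of their array, so a level can be compared between arrays for 1 gene but not between genes. Probes well above background numbered 35598 to 38522 per array, and no probe was saturated. Every member was well above background on all 12 arrays except Lyve1, which was on 11. Umod, a product of the thick ascending limb of the kidney tubule, lay 8.05 to 8.45 log2 units above the 75th percentile on all 12 arrays. The targeted gene, Jaml, was lower in KO sham (-3.54, -2.59 and -3.18) than in WT sham (-0.26, -0.26 and -0.44), by 2.79 ± 0.56 (SE, limma adjusted p = 0.0152). After IRI the Jaml levels were 0.55, -1.80 and -1.64 in WT and -1.89, -2.70 and -3.0 in KO, and the test of that difference was not passed (adjusted p = 0.153). WT IRI replicate 1 stood apart, with a spread around its group's mean level (root mean square over all genes) of 0.579 against 0.205 to 0.433 on the other arrays. All WT arrays were on 1 slide and all KO arrays on the other, so genotype and slide cannot be told apart, while IRI and sham arrays of a genotype shared a slide. On the WT slide all sham arrays were in row 1 and all IRI arrays in row 2, so injury and row cannot be told apart in WT. On the KO slide the sham arrays were in row 1, and IRI replicates 1, 2 and 3 were in rows 1, 2 and 2.

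The first question was how these genes differed after IRI in WT kidneys, where injury and row on the slide cannot be told apart. Ednrb, Nos3 and Lyve1 were higher after IRI and Ehd3 was lower, and these 4 of 43 members passed the test, where 12% of all genes tested did, 6.08% higher and 5.9% lower (limma, Benjamini-Hochberg adjusted p under 0.05 over all genes). The remaining members did not pass, and the median log2 fold change of the 43 was 0.02 against -0.01 over all genes. Groups that did not overlap were found for 11 members, 8 higher and 3 lower, where 32.3% of all genes had such groups, 17.2% higher and 15.1% lower. For 30 of the 43 the 95% interval of the change lay within a 2-fold difference either way, so a change beyond that size was outside their intervals. In bulk tissue fewer endothelial cells and less RNA per endothelial cell cannot be told apart. The WT calls moved with single arrays. Without WT sham replicate 1 or replicate 2 the count was 1, and without WT IRI replicate 3 it was 2. Without WT IRI replicate 2 it was 7, and the shares of all genes called without these arrays are not given here. In a fit to the 6 WT arrays alone no member passed, with adjusted p of 0.0561 for Ednrb, 0.11 for Ehd3, 0.133 for Nos3 and 0.109 for Lyve1, and 1.61% of all genes passed.

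In KO kidneys 2 of 43 members passed, Ednrb and Lyve1, both higher after IRI, where 6.16% of all genes did, 2.1% higher and 4.05% lower. Groups did not overlap for 21 members, 14 of them higher and 7 lower, against 35.7% of all genes (13.9% higher and 21.8% lower). The members' median change was 0.10 and that of all genes -0.08. The count was 1 without any 1 of the KO sham arrays or KO IRI replicate 2, and 0 without KO IRI replicate 3. In a fit to the 6 KO arrays alone it was 5, with Aplnr lower and Pdpn and S1pr1 higher beside the same pair. The shares of all genes called in these fits are not given here, so the counts are not a result about endothelial genes. The responses of the genotypes come from separate arrays, and 25 of the 43 members changed with the same sign in both (58.1%), against 67.3% of all genes.

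**Figure D1:**
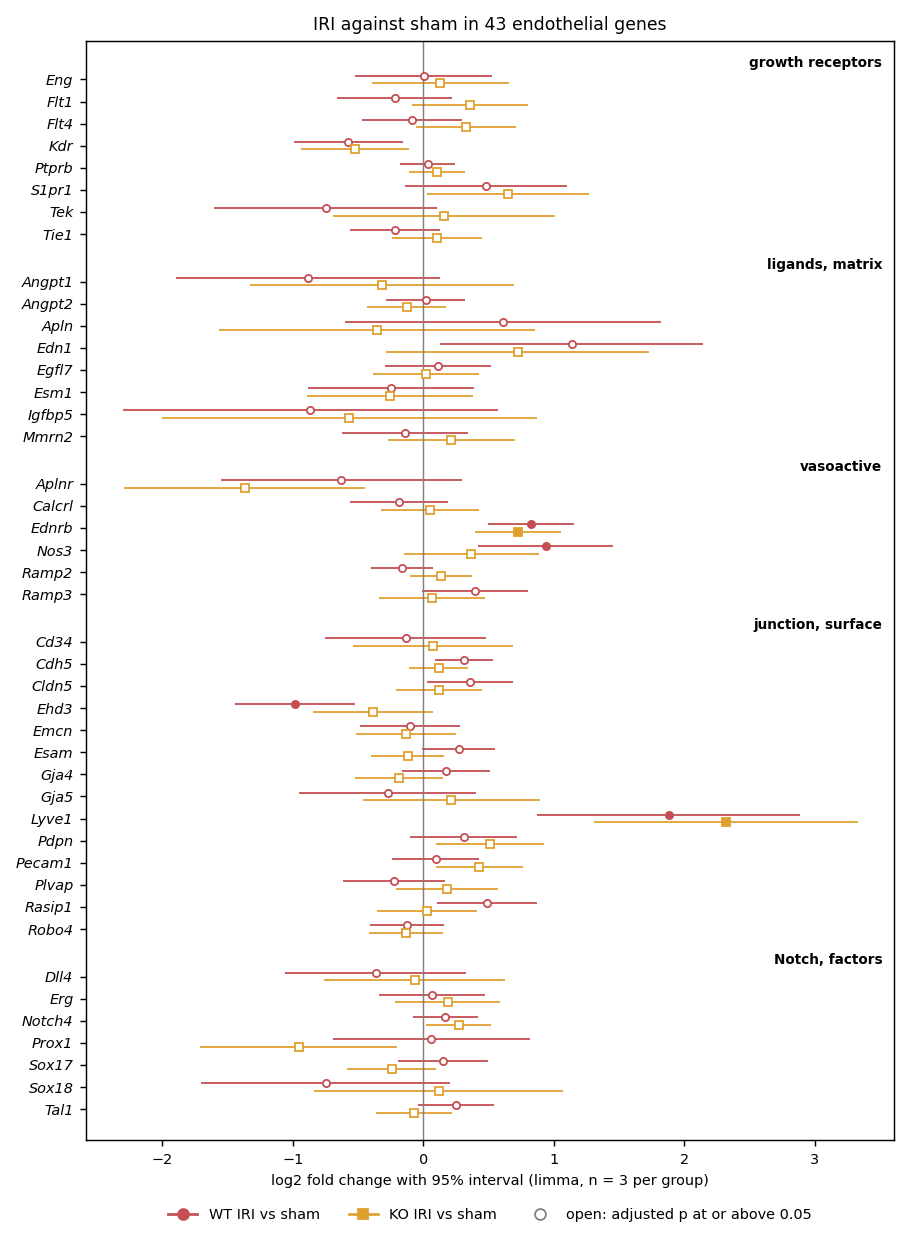
Log2 fold change of IRI against sham for the 43 endothelial genes, ordered by role, in WT (circles) and KO (squares), with 95% intervals from limma and n = 3 per group. Filled symbols passed the test: Ehd3 lies at -0.98 and Nos3 at 0.94 in WT, Ednrb at 0.83 and 0.73, and Lyve1 at 1.88 and 2.32 in WT and KO.

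Among receptors of growth signals, no member of 8 passed in either genotype. Kdr, the main signalling receptor for VEGF, was at 2.96, 3.14 and 2.46 in WT sham and 2.18, 2.24 and 2.42 in WT IRI, and at 2.98, 3.31 and 3.01 in KO sham and 2.69, 2.37 and 2.67 in KO IRI. In each genotype every IRI array lay below every sham array. Kdr differed by -0.57 ± 0.19 in WT, with an adjusted p of 0.0729, and KO mice gave -0.52 ± 0.19 and 0.14, so neither passed.

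Flt1, a VEGF receptor that also acts as a soluble decoy, read 3.80, 4.05 and 4.05 in WT sham, 3.30, 3.81 and 4.13 in WT IRI, 3.87, 3.93 and 3.90 in KO sham and 4.46, 4.01 and 4.31 in KO IRI. The WT groups overlapped, and the KO groups did not. Its changes of -0.22 ± 0.20 in WT and 0.36 ± 0.20 in KO did not pass, and the other kept probes of Flt1 differ in sign from this one in WT, at 0.17 and 0.79. Tek, the angiopoietin receptor Tie2, and its partner Tie1 changed by -0.75 and -0.22 in WT and by 0.16 and 0.10 in KO, with no call. Without WT IRI replicate 1 the WT change of Tek was -0.19. The remaining receptors were Flt4 (VEGFR3), Ptprb (the phosphatase VE-PTP), Eng (a coreceptor for TGF-beta family ligands) and S1pr1 (a sphingosine-1-phosphate receptor), whose changes ran from -0.09 to 0.48 in WT and from 0.10 to 0.65 in KO.

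Secreted factors gave no call among 8. The largest WT change was that of Edn1, endothelin-1, a strong vasoconstrictor, which was at -1.43, -1.46 and -1.41 in WT sham and 1.04, -1.07 and -0.87 in WT IRI. The WT groups did not overlap, but the 1.04 of replicate 1 stood far above the others and the change of 1.14 ± 0.45 did not pass (adjusted p = 0.128). In KO, Edn1 was at -2.23, -1.88 and -2.18 in sham and -1.13, -1.76 and -1.23 in IRI, a change of 0.72 ± 0.45 (adjusted p = 0.402). Without WT IRI replicate 1 the WT change of Edn1 was 0.46. Angpt1, the activating ligand of Tek, which mural cells also make, changed by -0.89 in WT and -0.32 in KO. Igfbp5, a binding protein for insulin-like growth factors found in peritubular capillaries, changed by -0.87 and -0.57. Both WT values rest on WT IRI replicate 1: without it they were -0.21 for Angpt1 and -0.02 for Igfbp5. Angpt2 (a context-dependent antagonist of Tek), Apln (apelin, the ligand of Aplnr), Esm1 (endocan), Egfl7 (a matrix-bound vessel guidance factor) and Mmrn2 (a matrix protein of vessels) lay between -0.25 and 0.61 in WT and between -0.36 and 0.22 in KO. The 0.61 is that of Apln, which without WT IRI replicate 1 was 1.33 and passed.

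Of 6 vasoactive genes, 2 rose in WT and 1 in KO. Ednrb, the endothelin B receptor, through which endothelial cells clear endothelin and release nitric oxide, was at -0.51, -0.69 and -0.73 in WT sham and 0.32, 0.11 and 0.11 in WT IRI. In KO it was at -0.16, -0.65 and -0.16 in sham and 0.34, 0.46 and 0.41 in IRI, so in both genotypes every IRI array lay above every sham array. The rise was 0.83 ± 0.15 in WT (1.77-fold, adjusted p = 0.0102) and 0.73 ± 0.15 in KO (1.65-fold, adjusted p = 0.021), and the difference between the rises was -0.10 with an adjusted p of 0.883. Its other kept probes gave 0.67 and 0.54 in WT and 0.63 and 0.68 in KO. The probe used lies on chromosome 14 at 104214484 to 104214543 (mm9, minus strand). Ednrb kept its call in 21 of 22 alternatives in WT (adjusted p 2.57e-05 to 0.0561) and in 18 of 22 in KO (0.00378 to 0.0801).

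Nos3, the endothelial nitric oxide synthase, was at 1.43, 1.42 and 1.35 in WT sham and 2.93, 1.89 and 2.19 in WT IRI. Every IRI array was above every sham array, and replicate 1 was the highest of all 12 arrays. The change was 0.94 ± 0.23 (1.91-fold, adjusted p = 0.0295), and without replicate 1 it was 0.64 and still passed. In KO, Nos3 was at 1.57, 1.23 and 1.55 in sham and 2.02, 1.63 and 1.80 in IRI, also without overlap, and the change of 0.37 ± 0.23 did not pass (adjusted p = 0.407). The test of the difference between genotypes gave -0.57 ± 0.33 (adjusted p = 0.576), so the WT call does not show a larger response in WT. Its probe lies on chromosome 5 at 23890038 to 23890097 (mm9, plus strand).

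Aplnr, the apelin receptor, changed by -0.63 in WT and -1.37 in KO, where the groups did not overlap and the adjusted p was 0.0849. Calcrl, the receptor for adrenomedullin and CGRP, and its accessory proteins Ramp2 and Ramp3 changed by -0.19, -0.16 and 0.39 in WT and by 0.05, 0.14 and 0.07 in KO, with no call.

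Among the 14 junction and surface genes, Ehd3 fell and Lyve1 rose in WT, and Lyve1 rose in KO. Ehd3, an endocytic recycling protein that in the kidney marks glomerular endothelium, was at 2.69, 2.79 and 2.41 in WT sham and 1.12, 1.91 and 1.92 in WT IRI. No IRI array reached the lowest sham array, and replicate 1 was the lowest of all 12. The fall was -0.98 ± 0.21 (1.98-fold lower, adjusted p = 0.0171), and without WT IRI replicate 1 it was -0.72 and still passed. In KO, Ehd3 was at 2.78, 2.65 and 2.83 in sham and 2.25, 2.5 and 2.34 in IRI, again without overlap. That change of -0.39 ± 0.21 did not pass (adjusted p = 0.319), nor did the difference between the genotypes' responses, 0.60 ± 0.29 (adjusted p = 0.529). Over 22 alternatives the WT change lay between -1.12 and -0.72, with adjusted p from 9.93e-06 to 0.11. The probe lies on chromosome 17 at 74181371 to 74181428 (mm9, plus strand).

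Start-site sequences were at hand for 28 of the 43 members, with 34 promoters, and for Ednrb, Ehd3, Gja4 and Prox1 among the 7 members past the threshold in some comparison. Those of Ehd3, which fell in WT, and of Ednrb, which rose in both genotypes, are shown to set a lower gene beside a higher one. Each runs from 250 bases before to 50 bases after the start site, from RefSeq on GRCm38.p6, with Ehd3 at chr17:73804591-73804890 on the plus strand and Ednrb at chr14:103843652-103843951 on the minus strand. Capitals mark AGGAAG or its reverse complement, letters that ETS factors such as Erg can bind. The shorter ETS core GGAA is not marked.
Ehd3: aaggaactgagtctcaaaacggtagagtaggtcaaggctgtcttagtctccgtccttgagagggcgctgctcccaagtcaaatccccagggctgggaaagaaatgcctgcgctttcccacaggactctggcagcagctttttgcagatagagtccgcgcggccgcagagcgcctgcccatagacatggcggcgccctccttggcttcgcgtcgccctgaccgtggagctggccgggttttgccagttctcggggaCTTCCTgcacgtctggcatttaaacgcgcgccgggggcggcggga
Ednrb: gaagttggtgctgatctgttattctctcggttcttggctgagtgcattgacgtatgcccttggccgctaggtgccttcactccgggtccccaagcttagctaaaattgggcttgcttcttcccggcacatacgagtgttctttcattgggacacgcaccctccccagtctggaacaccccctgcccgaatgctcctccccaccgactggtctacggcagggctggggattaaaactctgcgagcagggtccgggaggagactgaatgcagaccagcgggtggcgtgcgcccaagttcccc

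The Ehd3 window held 1 match to AGGAAG and the Ednrb window 0, while both windows hold the shorter core GGAA or its reverse complement elsewhere, unmarked. On both strands, AGGAAG was in 16 of the 34 member promoters (47.1%) and in 35.4% of 32851 promoters of the same length. The SOX letters AACAAT were in 4 member promoters (11.8% against 11%), the hypoxia response letters ACGTG in 3 (8.82% against 19.6%) and the AP-1 letters TGANTCA in 1 (2.94% against 7.81%). These motifs were chosen after the expression values were seen, and a match describes the letters in this window only.

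Lyve1, a hyaluronan receptor of lymphatic vessels that some macrophages also carry, was at -4.19, -4.87 and -4.01 in WT sham and -1.53, -3.38 and -2.53 in WT IRI. In KO it was at -5.07, -4.93 and -6.15 in sham and -3.16, -3.01 and -3.03 in IRI, and it was well above background on 2 of 3 KO sham arrays. Every IRI array lay above every sham array in both genotypes. The rise was 1.88 ± 0.45 in WT (3.68-fold, adjusted p = 0.0266) and 2.32 ± 0.45 in KO (4.98-fold, adjusted p = 0.0175), and the difference between them was 0.44 ± 0.64 (adjusted p = 0.824). The signal was faint, so its size turned on the background: with a normexp correction the rise was 1.03 in WT, which passed, and 0.79 in KO, which did not (adjusted p = 0.113), in ranges over 21 alternatives of 0.00015 to 0.109 and 0.000554 to 0.113. The probe lies on chromosome 7 at 117994171 to 117994230 (mm9, minus strand).

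The other lymphatic genes did not follow Lyve1 past the threshold. Prox1, the transcription factor that sets lymphatic identity, was at -1.41, -1.60 and -2.30 in WT sham, -2.27, -1.24 and -1.61 in WT IRI, -0.70, 0.21 and -0.61 in KO sham and -1.20, -1.13 and -1.63 in KO IRI. The WT groups overlapped, and in KO the IRI arrays were all lower, by -0.96 ± 0.34 (adjusted p = 0.136). Pdpn, podoplanin, which podocytes also make, changed by 0.31 in WT and 0.51 in KO, and Flt4 by -0.09 and 0.33. Most of 8 leukocyte markers were lower after IRI. The change was negative for 7 in WT, where Ptprc changed by 0.32, and for 6 in KO. Of all 8, 4 fell past the threshold in WT and 3 in KO. The summed level of the 8 was 29.3 to 46.7 in WT sham and 18.2 to 19.7 in WT IRI. In KO it was 27.8 to 36.0 in sham and 15.7 to 17.1 in IRI, in units of the array's 75th percentile. The part of leukocytes in the Lyve1 result was not tested.

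Set beside each other by bed, the members' medians were as follows. The median change of the 4 genes listed as glomerular, Ehd3, Emcn, Kdr and Flt1, was -0.40 in WT and -0.26 in KO, with 1 call in WT. Emcn, Kdr and Flt1 are not confined to glomeruli, so this median does not measure the glomerular bed alone. The Flt1 value in it had the opposite sign on the other kept probes in WT, 0.17 and 0.79. The 3 peritubular genes Plvap, Igfbp5 and Aplnr had medians of -0.63 and -0.57 with no call. Their WT median rests on WT IRI replicate 1, without which Plvap was at -0.07, Igfbp5 at -0.02 and Aplnr at -0.37. The 4 arterial genes Gja4, Gja5, Sox17 and Dll4 had medians of -0.06 and -0.13 with no call, and the 4 lymphatic genes medians of 0.18 and 0.42, with Lyve1 the 1 call in each genotype. These medians describe 3 or 4 genes each and were not tested against one another. Further markers of the same beds had other medians: 7 glomerular genes outside the set were at -0.13 in WT and 0.08 in KO, and 4 peritubular genes at -0.01 and -0.18. Emcn, the surface sialomucin endomucin, changed by -0.10 in WT and -0.13 in KO, the smallest changes of the 4 members listed as glomerular.

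**Figure D2:**
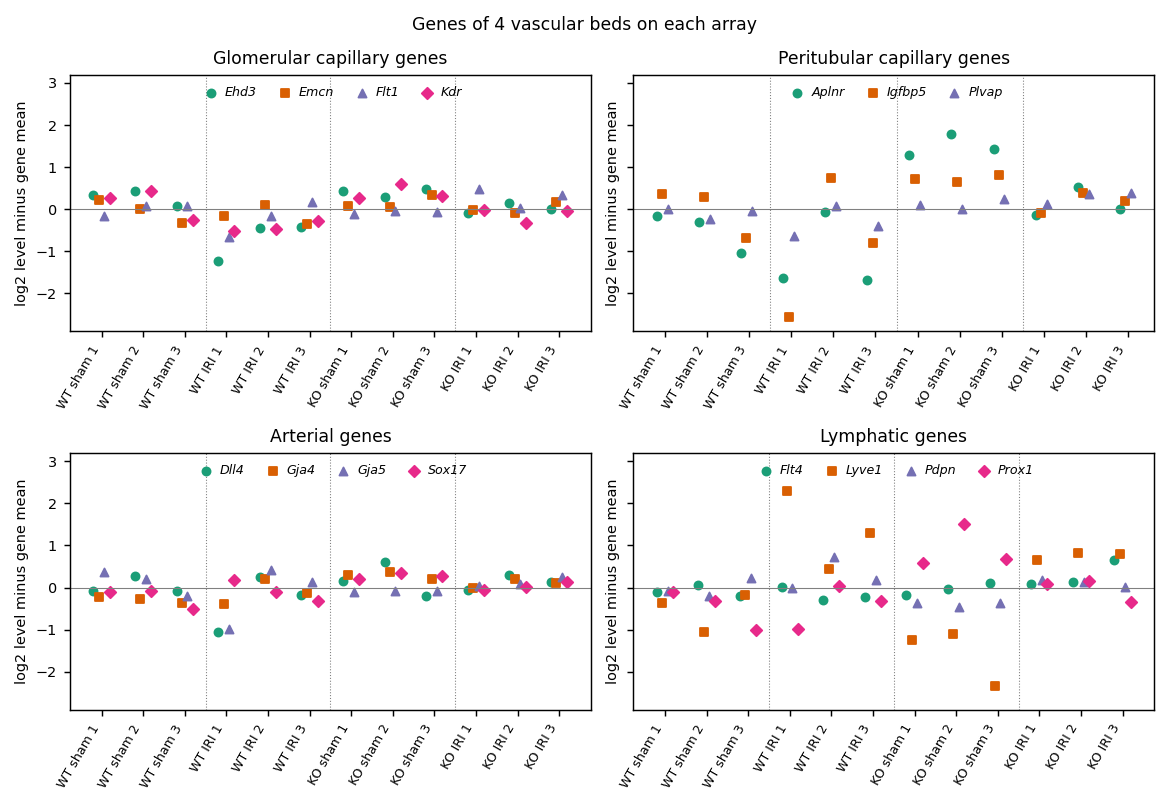
Level of each bed's genes on each of the 12 arrays, in log2 units after subtracting the gene's mean over all arrays. Ehd3 and Kdr lie lower in WT IRI than in WT sham, Lyve1 lies higher on IRI than on sham arrays of the same genotype, and Aplnr and Prox1 are highest in KO sham.

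Plvap, which forms the diaphragms of capillary fenestrae, was at 4.22, 4.0 and 4.17 in WT sham, 3.59, 4.29 and 3.81 in WT IRI, 4.32, 4.21 and 4.47 in KO sham and 4.34, 4.59 and 4.61 in KO IRI. Sham and IRI overlapped in both genotypes, and the changes of -0.23 ± 0.18 and 0.18 ± 0.18 did not pass. Gja5, connexin 40 of arterial endothelium, was at -0.72, -0.89 and -1.31 in WT sham, -2.09, -0.69 and -0.97 in WT IRI, -1.21, -1.18 and -1.19 in KO sham and -1.07, -1.02 and -0.85 in KO IRI. The WT groups overlapped, with replicate 1 far below the rest, and the changes of -0.27 ± 0.30 and 0.21 ± 0.30 did not pass. Without that array the WT change was 0.15. Its other kept probes had the opposite sign in WT, at 0.21 and 0.23.

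Pecam1 and Cdh5, carried by nearly all endothelium, did not pass in either genotype. Pecam1, the adhesion molecule CD31, was at -1.28, -1.48 and -1.19 in WT sham, -1.37, -1.28 and -1.02 in WT IRI, -1.29, -1.14 and -1.17 in KO sham and -0.77, -1.0 and -0.54 in KO IRI. The WT groups overlapped (0.09 ± 0.15, adjusted p = 0.728), with a 95% interval from -0.24 to 0.43. In KO the IRI arrays were all higher, by 0.43 ± 0.15, which did not pass (adjusted p = 0.13). Cdh5, VE-cadherin, was at 0.97, 0.93 and 0.81 in WT sham, 1.29, 1.24 and 1.11 in WT IRI, 1.04, 1.18 and 1.09 in KO sham and 1.21, 1.2 and 1.24 in KO IRI. Its groups did not overlap in either genotype, and the changes of 0.31 ± 0.10 (adjusted p = 0.0727) and 0.12 ± 0.10 (adjusted p = 0.566) did not pass.

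The remaining junction and surface genes gave no call. Cldn5, the tight junction claudin, and Rasip1, a junction regulator, changed by 0.36 and 0.48 in WT and by 0.12 and 0.03 in KO. Esam, an endothelial adhesion molecule, changed by 0.27 and -0.12, and Gja4, connexin 37, by 0.17 and -0.19. Cd34, a surface sialomucin, and Robo4, a vessel-stabilising guidance receptor, were at -0.14 and -0.13 in WT and 0.07 and -0.13 in KO. Among the 7 Notch and transcription factor genes no member passed in either genotype. Sox18, a factor of early vessel identity, changed by -0.75 in WT and 0.12 in KO, and 1 array was behind the WT value: its WT IRI levels were -2.14, -0.10 and -0.26, and without replicate 1 the change was -0.10. Erg, an ETS factor that maintains endothelial identity, was at 0.07 and 0.18, Sox17 (arterial) at 0.15 and -0.24, Tal1 (blood and vessel development) at 0.25 and -0.07, and the Notch ligand Dll4 and receptor Notch4 at -0.37 and 0.17 in WT and -0.07 and 0.27 in KO.

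Other cell types moved in the same comparisons, and their part in the results was not tested. Podocyte markers, relevant to glomerular genes such as Ehd3, had a summed level of 37.9 to 42.9 in WT sham and 26.2 to 33.3 in WT IRI, with 1 of 7 past the threshold (Clic5, -1.03), and of 35.5 to 38.9 and 33.2 to 36.7 in KO sham and IRI, with none. Pericyte and smooth muscle markers gave no call among 9 in WT or KO, at 22.7 to 34.4 in WT sham and 33.7 to 43.9 in WT IRI. Adipocyte markers, of which 3 of 6 rose in WT and 1 in KO, went from 11.3 to 12.8 in WT sham to 30.4 to 59.0 in WT IRI, and from 14.8 to 19.0 to 25.4 to 30.3 in KO, where 3 of the 6 had a positive change and 3 a negative one. Red cell markers, of which 3 of 5 rose in WT, went from 12.6 to 13.9 in WT sham to 44.1 to 75.7 in WT IRI, and lay at 17.3 to 23.6 and 14.5 to 38.4 in KO sham and IRI, with none past the threshold.

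The next question was how KO kidneys differed from WT kidneys without injury, where genotype and slide cannot be told apart. Aplnr, Gja4 and Prox1 were higher in KO sham, and these 3 of 43 members passed, where 8.85% of all genes did, 5.12% higher and 3.73% lower. The members' median difference was 0.19, and that of all genes was itself 0.12 (0.06 after quantile normalization). Proximal tubule markers had a summed level of 549 to 623 in WT sham and 739 to 848 in KO sham, with all 6 higher without overlap and 1 past the threshold, and 2 of 8 leukocyte markers were lower past it. The part of these cells in the differences was not tested. Differences were positive for 35 of 43 members and for 16870 of the 25947 genes tested. Groups did not overlap for 24 members (42.7% of all genes), with 19 higher in KO (30.6% of all genes) and 5 lower (12.2%). The count fell to 0 without WT sham replicate 3 or any 1 of the KO sham arrays and to 1 without WT sham replicate 1 or 2. It rose to 11 without WT IRI replicate 1, which is in neither group and enters through the shared spread. In a fit to the 6 sham arrays alone it was 7. As the shares of all genes called in these fits are not given here, the counts are not a result about endothelial genes.

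Aplnr was at -3.92, -4.08 and -4.82 in WT sham and -2.49, -1.99 and -2.34 in KO sham. All KO sham arrays were above all WT sham arrays, by 2.00 ± 0.42 (4.0-fold, adjusted p = 0.0183). Over 22 alternatives the difference was 1.19 to 2.18 with adjusted p from 0.000142 to 0.0611, and the low end came from the normexp background correction, which passed. After IRI it was at -5.41, -3.84 and -5.45 in WT and -3.91, -3.25 and -3.77 in KO, where the genotypes overlapped (1.26, adjusted p = 0.134). The probe lies on chromosome 2 at 84979638 to 84979697 (mm9, plus strand). Its ligand Apln was 0.76 higher in KO sham, with no overlap and an adjusted p of 0.443.

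Gja4 was at -0.67, -0.72 and -0.83 in WT sham and -0.15, -0.08 and -0.25 in KO sham, again without overlap. The difference was 0.58 ± 0.15 (1.49-fold, adjusted p = 0.0416), and the call was lost in 11 of 22 alternatives, with adjusted p from 0.000371 to 0.13. After IRI Gja4 was at -0.85, -0.25 and -0.59 in WT and -0.46, -0.24 and -0.34 in KO, which overlapped. The probe lies on chromosome 4 at 126988848 to 126988907 (mm9, minus strand). Of the other arterial genes, Sox17 was 0.50 higher in KO sham without overlap (adjusted p = 0.0735), Dll4 was 0.15 higher, and Gja5 was -0.22 by the probe used and 0.78 and 1.21 by its other probes, so its direction rests on the probe.

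Prox1 was higher in KO sham than in WT sham by 1.40 ± 0.34 (2.65-fold, adjusted p = 0.0319), and the groups, with the levels given above, did not overlap. A second kept probe of nearly the same mean level gave 0.66 and did not pass (adjusted p = 0.267, the highest over 22 alternatives, of which the lowest was 0.000853). The probe used lies on chromosome 1 at 191946360 to 191946419 (mm9, minus strand). Prox1 is also made in the thick ascending limb, whose 5 markers had a summed level of 481 to 573 in WT sham and 529 to 585 in KO sham, with none past the threshold, and their part in the Prox1 difference was not tested. The other lymphatic genes lay the other way or near 0 in KO sham: Lyve1 at -1.02 (adjusted p = 0.198), Pdpn at -0.38 and Flt4 at 0.04.

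**Figure D3:**
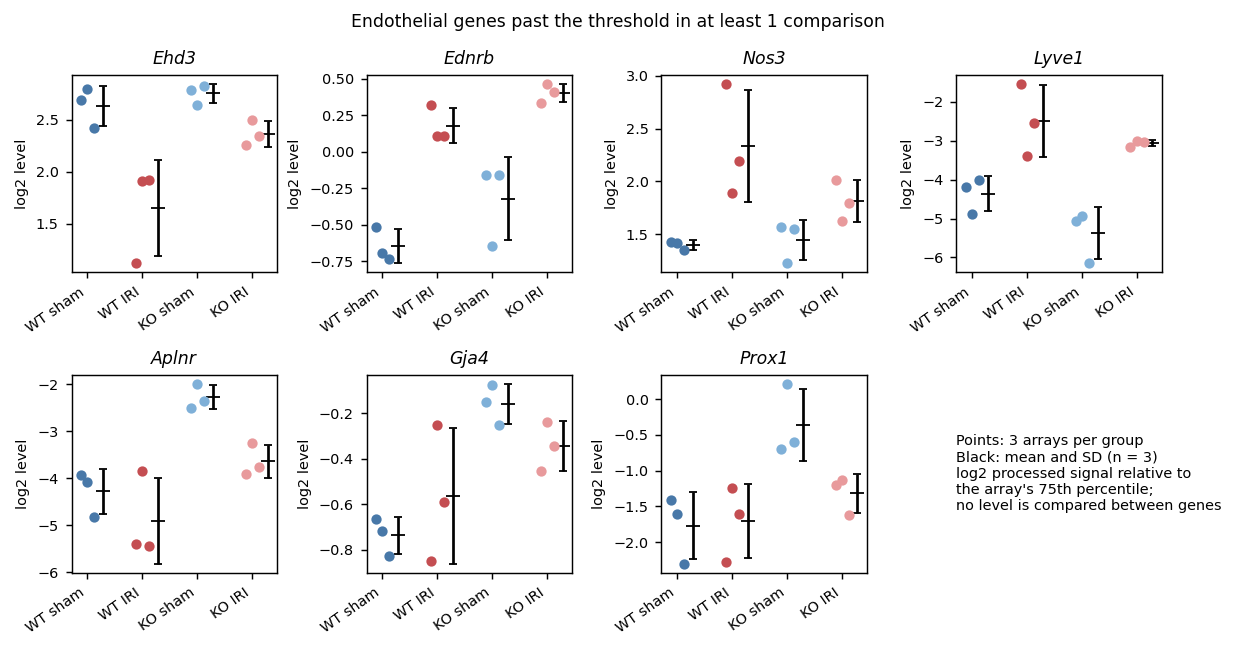
Log2 level of the 7 endothelial genes that passed the test in at least 1 comparison, with 1 point per array, 3 arrays per group, and the group mean and SD in black. Ednrb and Lyve1 lie higher on IRI arrays in both genotypes, Ehd3 has its lowest mean in WT IRI, and Aplnr, Gja4 and Prox1 have their highest means in KO sham.

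The remaining sham differences did not pass. Ptprb was 0.32 higher in KO (adjusted p = 0.0656), and its second probe gave 0.64. S1pr1 (-0.71), Edn1 (-0.66) and Pdpn were lower in KO without overlap, while Esm1 (0.65), Angpt1 (0.64), Cd34 (0.46), Sox18 (0.62) and Igfbp5 (0.74) were higher without overlap. Igfbp5 had the widest error of these, with a 95% interval from -0.70 to 2.18, and its second probe gave 0.03. Pecam1 (0.12), Cdh5 (0.20), Plvap (0.21), Kdr (0.25) and Ehd3 (0.12) differed by at most 0.25.

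After IRI no member differed between KO and WT past the threshold (0 of 43, limma), where 1.93% of all genes did, 0.91% higher and 1.02% lower. At an unadjusted p under 0.05 there were 18 members (41.9%), against 21.7% of all genes, and the lowest adjusted p of a member was 0.0688. The median difference was 0.27 against 0.04 over all genes, and differences were positive for 33 of 43 members and for 14096 of the 25947 genes tested. Groups did not overlap for 17 members (21.8% of all genes), with 16 higher in KO (12.3% of all genes) and 1, Edn1, lower (9.45%). The lowest adjusted p was that of Ptprb, at 2.81, 2.81 and 2.77 in WT IRI and 3.14, 3.17 and 3.25 in KO IRI (0.39 ± 0.10), but its second probe gave -0.55. Tie1 was at -0.61, 0.07 and -0.23 in WT and 0.24, 0.36 and 0.30 in KO, which did not overlap (0.56 ± 0.16, adjusted p = 0.0948). Plvap (0.61), Ehd3 (0.72), Sox18 (1.49) and Tek (1.1) were higher in KO IRI without overlap, with adjusted p of 0.103, 0.104, 0.103 and 0.15, and Pecam1 (0.45) with 0.135. Edn1 differed by -1.08 (adjusted p = 0.209) and Nos3 by -0.52 (adjusted p = 0.227).

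**Figure D4:**
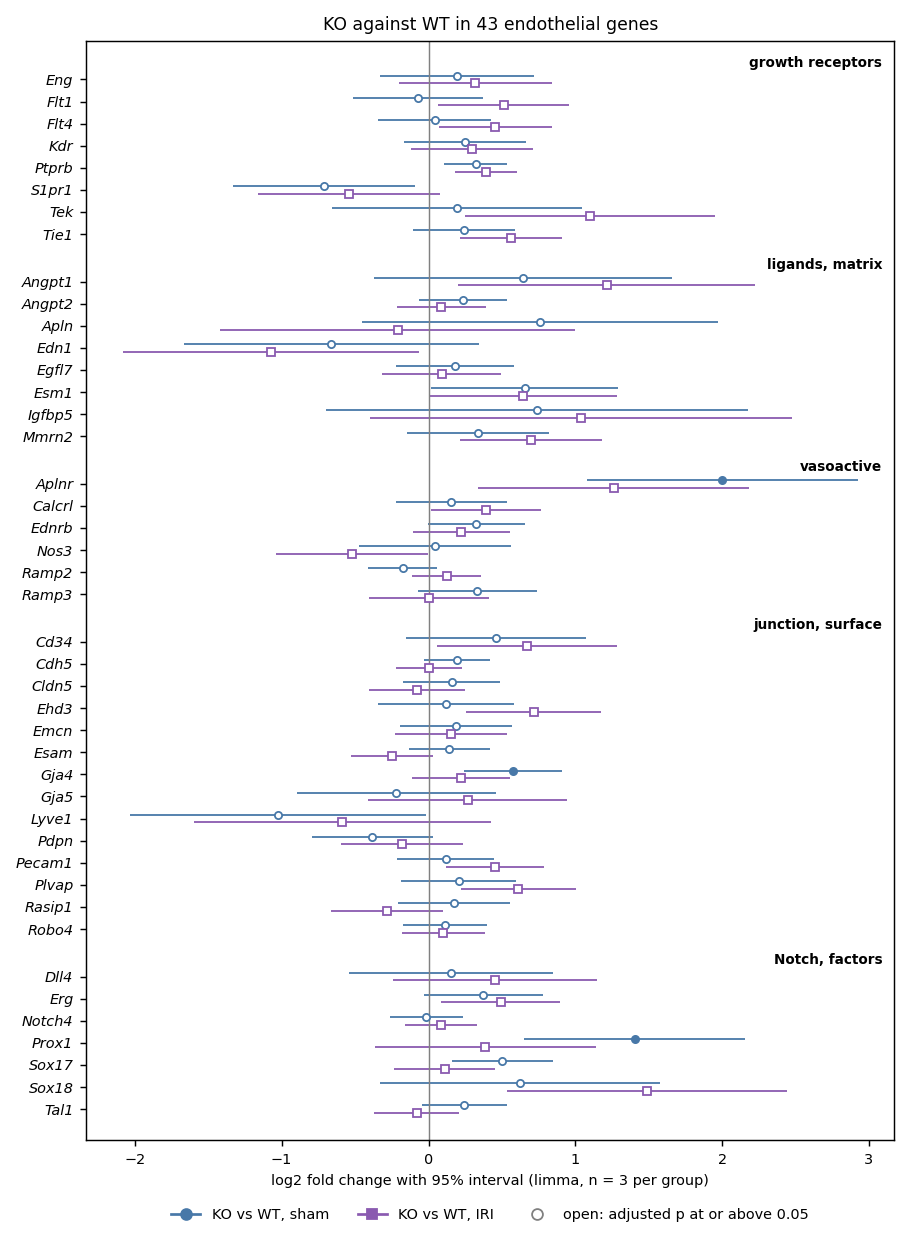
Log2 fold change of KO against WT for the 43 endothelial genes, ordered by role, after sham operation (circles) and after IRI (squares), with 95% intervals from limma and n = 3 per group. Filled symbols, Aplnr at 2.00, Gja4 at 0.58 and Prox1 at 1.40, passed the test after sham operation, and no symbol is filled after IRI.

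These values after IRI move with 1 array. WT IRI replicate 1 was the lowest of the 12 arrays for 20 of 43 members (46.5%), against 23.7% of all genes, and the highest for 10 (23.3%), against 23.8%. It was the lowest for Angpt1 (-1.80 against 0.29 and 0.17 on the other WT IRI arrays), Sox18, Tek (-1.40 against 0.33 and 0.22), Igfbp5 (1.32 against 4.63 and 3.10) and Cd34 (1.89 against 3.23 and 2.92). It was the highest for Edn1, Nos3 and Rasip1 (1.55 against 0.94 and 0.77). Without it the median difference between KO IRI and WT IRI was 0.19, and 1 member passed, Sox18. Without WT IRI replicate 2 there were 4 calls, Aplnr, Plvap, Sox18 and Tie1, all higher in KO. The shares of all genes called without either array are not set beside these counts.

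**Figure D5:**
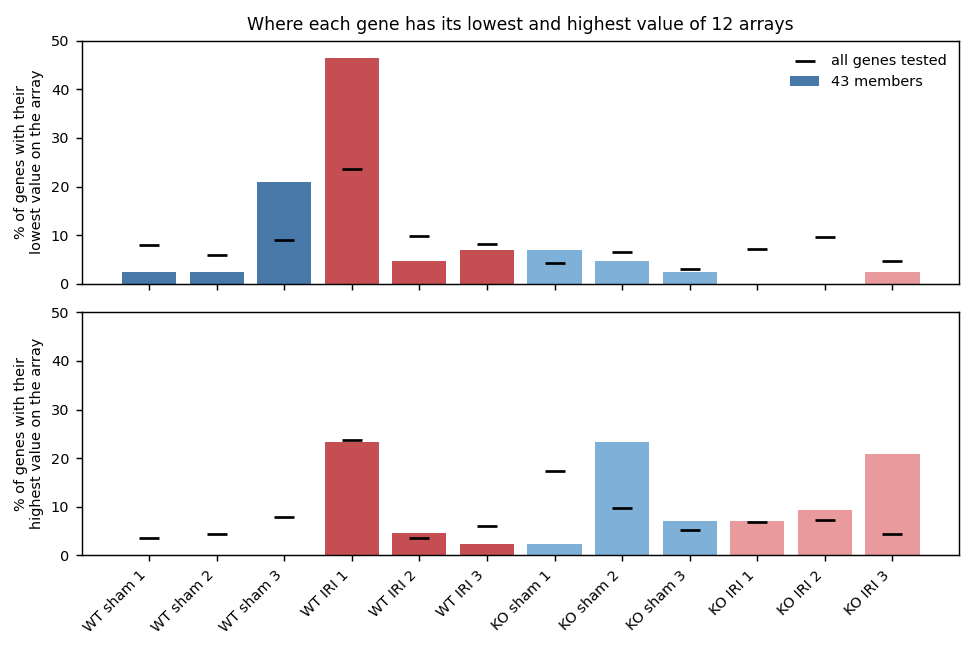
Percent of genes whose lowest (upper panel) or highest (lower panel) value of the 12 arrays fell on each array, for the 43 endothelial genes (bars) and all genes tested (black lines). WT IRI replicate 1 holds the lowest value of 46.5% of the endothelial genes and 23.7% of all genes.

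Whether the response to IRI differed between genotypes was tested by the interaction, in which a slide effect that adds the same amount to sham and IRI cancels. An effect of the row on the slide need not cancel, as the rows were split differently in WT and KO. No member passed (0 of 43, limma), where 0.0694% of all genes did, 0.0193% with a higher and 0.0501% with a lower response in KO. At an unadjusted p under 0.05 there were also 0 members, against 9.77% of all genes, and the lowest adjusted p was 0.508. The count was 0 in each fit that left out 1 array. For 26 of 43 members the 95% interval of this difference lay within a 2-fold difference either way. The most negative value was that of Prox1, -1.02 ± 0.48 (adjusted p = 0.516), and the most positive that of Tek, 0.91 ± 0.54 (adjusted p = 0.588). The WT change of Tek, which enters its value, was -0.75 and became -0.19 without WT IRI replicate 1. All 8 growth receptors had a positive value by the probes used, with a median of 0.25, and the median of the 43 was 0.10 against -0.09 over all genes. Their other kept probes went the other way. Those of Flt1 changed by 0.17 and 0.79 in WT and by -0.14 and 0.26 in KO, and that of Ptprb by 0.92 in WT and -0.27 in KO.

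Related genes outside the set were taken from lists of related pathways and the same beds. They are read against the shares of all genes called, 12% in WT after IRI and 8.85% between the sham groups. A list of 27 tested genes mixed VEGF, Notch, bone morphogenetic protein and endothelin signalling with other vessel genes such as Vwf and Klf2. In WT after IRI 2 of the 27 passed, both higher. Pgf, placental growth factor and a ligand of Flt1, rose by 1.31 ± 0.23 (adjusted p = 0.00863). Its signal was faint, at -5.30, -4.79 and -5.32 in WT sham and -4.30, -3.68 and -3.49 in WT IRI. Bmp4, a bone morphogenetic protein, rose by 0.60 ± 0.14 (adjusted p = 0.0236). None of the 27 passed in KO after IRI or between the sham groups. After IRI 1 was lower in KO than in WT: Hes1, a target of Notch, was at -1.59, -1.67 and -1.37 in WT and -2.30, -2.63 and -2.60 in KO (-0.97 ± 0.15, adjusted p = 0.0131).

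Among 6 further lymphatic genes, Nrp2, a receptor for VEGF-C and semaphorins, rose by 1.68 ± 0.38 in WT (adjusted p = 0.0216), and Ccl21a, a lymphatic chemokine, fell by 1.09 ± 0.30 (adjusted p = 0.0428). Of 8 further arterial genes, Sema3g, a semaphorin, fell by 0.50 ± 0.11 in WT (adjusted p = 0.0203), and Efnb2, ephrin-B2, was 0.51 ± 0.12 higher in KO sham (adjusted p = 0.03). None of 7 further glomerular or 4 further peritubular genes passed in any of the 5 comparisons.

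Of 6 adhesion genes of activated endothelium, Selp rose after IRI in WT and was lower in KO IRI, and Vcam1, Icam1 and Madcam1 differed between the sham groups. Selp, P-selectin, which platelets also carry, was at -4.95, -5.33 and -4.93 in WT sham and -2.47, -3.12 and -3.05 in WT IRI, a rise of 2.19 ± 0.31 (adjusted p = 0.00371). In KO it was at -5.33, -4.66 and -5.02 in sham and -4.46, -5.48 and -4.40 in IRI, which overlapped, and the difference between the responses was -1.97 ± 0.43 with an adjusted p of 0.227. After IRI Selp was lower in KO than in WT by 1.90 ± 0.31 (adjusted p = 0.0156). None of 5 platelet markers passed after IRI in either genotype, with 4 positive and 1 negative in WT. Their summed level was 0.873 to 1.03 in WT sham, 1.85 to 2.64 in WT IRI, 0.545 to 0.771 in KO sham and 0.634 to 1.96 in KO IRI, with 1 of 5 lower in KO after IRI, and their part in the Selp result was not tested. Vcam1 and Icam1, which bind leukocyte integrins, were lower in KO sham by 1.97 ± 0.33 (adjusted p = 0.00769) and 1.55 ± 0.42 (adjusted p = 0.0467). Madcam1, an adhesion molecule of gut venules, was higher in KO sham by 1.47 ± 0.22 (adjusted p = 0.00521), on a probe well above background on 1 of 3 WT sham arrays. After IRI it was well above background on no WT array and at least 2.12-fold higher in KO (adjusted p = 0.0115), the bright group's mean set against the lowest signal well above background.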

How the data were processed

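Total RNA of 12 mouse kidneys was labelled with Cy3 and hybridised to one-colour Agilent arrays. The deposited scanner files hold a processed signal, a linear intensity from Agilent Feature Extraction 10.7.1.1, corrected for background and spatial trend, per the file headers. The authors' deposited table of log2 values served as an alternative; the submitters' processing notes name limma and give no version. Control and outlier spots were left out, spots of a probe were averaged, and the log2 signal was reduced by the array's 75th percentile. Probes well above background on at least 3 of 12 arrays were kept (39449 probes), and each gene was read by its brightest kept probe. All 12 arrays entered a single model, a mean for each group, in limma (version 3.58.1, R version 4.3.3), with two-sided tests and Benjamini-Hochberg adjustment over all 25947 genes at 0.05, after a test on simulated data. Errors are standard errors with n = 3 per group, and precision is limited by that number.

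The members and gene lists were chosen with earlier results of these data known. Per-sample values are given for members past the threshold in any comparison and always for Pecam1, Cdh5, Kdr, Flt1, Ehd3, Plvap, Gja5, Lyve1 and Prox1; other members are given by their changes, and genes outside the set where past the threshold. Array values of Edn1, Tie1, Ptprb and of genes on which WT IRI replicate 1 was extreme were added after the values were seen. Symbols were matched through RefSeq for GRCm38.p6, and probe coordinates are the files' own, on mm9. Alternatives changed the background correction, normalization, probe filter and choice, array weights, arrays in the fit, replicate block and source of values. The slide could not be fitted as a term beside genotype.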

Additional observations from a re-analysis of the deposited data

Results flagged for a closer look

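Ramp2, an accessory protein of the adrenomedullin receptor, moved in opposite directions in the genotypes with no overlap between sham and IRI arrays in either. It was at 3.15, 3.14 and 3.09 in WT sham and 3.04, 2.83 and 3.03 in WT IRI, a change of -0.16, and at 3.02, 2.83 and 3.00 in KO sham and 3.05, 3.16 and 3.06 in KO IRI, a change of 0.14. Likewise KO was lower than WT after sham operation (-0.18) and higher after IRI (0.12), without overlap in either. The interaction, which tests this difference, was 0.30 ± 0.15 with a limma adjusted p of 0.534, so it did not pass, and no single comparison of Ramp2 passed.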

How the results depend on the processing

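Of 1903 values of single members recomputed under an alternative, 1763 kept their direction and their side of the threshold, 44 lost a call, 65 gained one and 31 changed sign. Leaving out each array in turn gave 1 to 7 calls among the 43 members for WT IRI against sham, 0 to 3 for KO IRI against sham, 0 to 11 for KO against WT after sham operation, 0 to 4 after IRI and 0 to 0 for the interaction. Array weights gave 26, 11, 24, 21 and 4 calls in the same order. The estimation of those weights stopped before convergence. A fit to only the groups compared gave 0, 5 and 7 calls in the first 3 comparisons. In KO after IRI the count was 1 both with probes well above background on all 12 arrays, which leaves Lyve1 out, and with the second probe of a gene. The share of all genes called under the same setting is not set beside these counts, nor beside those above that left out 1 array. They are therefore not a result about endothelial genes in particular.

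Deviations of same-numbered arrays of different groups had correlations from -0.267 to 0.151, over 0.1 in 4 of 18 pairs. Among pairs of different number, 9 of 36 were over 0.1. No sign of pairing by number was seen, though with 3 arrays a group this check is weak and cannot exclude it. With the replicate block the counts were 4, 3, 3, 0 and 0.

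The cause of the sign changes was not tested. With the mean of a gene's probes the changes were 0.25 (Flt1), 0.0547 (Gja5) and -0.21 (Prox1) in WT, -0.0395 (Gja5) in KO, 0.59 (Gja5) between sham groups, -0.18 (Flt1) between IRI groups, and 3.32e-05 in the Ednrb interaction, and the log2 fold change of Ptprb, KO IRI vs WT IRI, was -0.0777. With the second probe they were 0.17, 0.21 and -0.48 (Flt1, Gja5, Prox1) in WT, -0.14 (Flt1) in KO, 0.78 (Gja5) between sham groups, and -0.46 (Flt1) and -0.55 (Ptprb) between IRI groups. Array weights gave 0.19 (Flt1) in WT, and the log2 fold change of Prox1, WT IRI vs WT sham, was -0.0289 with them. The log2 fold change of Cdh5, KO IRI vs WT IRI, was -0.00182 after quantile normalization and -0.00183 in the authors' table. The Lyve1 interaction was -0.24 with normexp. Leaving out 1 array turned Flt1, Gja5, Pecam1 and Prox1 in WT (-0.41 to 0.00099, -0.55 to 0.15, -0.0103 to 0.17 and -0.20 to 0.34), Nos3 between sham groups (-0.0130 to 0.16), Cdh5 and Gja5 between IRI groups (-0.0487 to 0.0410 and -0.15 to 0.55) and the Lyve1 interaction (-0.0116 to 0.91).

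Signal over background limits faint members such as Lyve1 and Aplnr, whose changes were smaller with normexp. The same limit holds for faint genes outside the set such as Pgf and Selp, whose changes with normexp are not given here. With 3 arrays a group, changes under about 2-fold in the noisier members could not be resolved.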
